A study of Homo sapiens with 6 samples.

Results

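Transcript usage was compared between TCam-2 cells that overexpressed RBMXL3 and 4 pooled control libraries. Usage is the share of each transcript in its gene's summed TPM (transcript abundance scaled to library size and transcript length), given in percent, and a difference between 2 shares is given in percentage points. A transcript that rose or fell did so in share, and its TPM need not have moved the same way. A gene was a member when its summed TPM was at least 5 in all 6 libraries and 2 or more of its transcripts reached a TPM of 1 in 2 or more libraries. The rule took 7642 of the 58090 genes that had a matched transcript, and 33226 of their transcripts passed the same TPM limit and were tested.

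TCam-2 is an established human cell line from a testicular cancer of seminoma type. The RBMXL3 group was transduced with RBMXL3_FLAG, the GFP group with GFP_FLAG, and the WT group was not transduced; each group had 2 libraries of polyadenylated RNA. GFP shares transduction and the FLAG tag with RBMXL3, and WT shares neither. The promoter of the constructs, and whether a group is 1 clone or a pool of cells, are not given in the sources used here. Nothing in the labels says that the 2 libraries of a group came from separate cultures, so p-values measure only the spread between these libraries.

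A gene gives rise to several transcripts through alternative start sites, alternative splicing and alternative polyadenylation, and some of these transcripts keep an intron or carry a premature stop codon that marks them for nonsense-mediated decay. RBMX, also called hnRNP G, is an RNA-binding protein of the nucleus that modulates splice site choice and is known for its interplay with the TRA2 proteins. RBMXL3 is a paralogue of RBMX encoded on the X chromosome.

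The libraries held between 17685680 and 29318007 recovered gene reads, and the 2 RBMXL3 libraries had the fewest, at 17685680 and 21023355. RBMXL3 was listed at 0 TPM in all 4 controls and at 1.8 and 1.31 TPM in the RBMXL3 libraries. The seminoma markers examined were present in every library, from 2.44 TPM for KIT, the lowest, to 2126 TPM for POU5F1. Of 2 genes examined as embryonal carcinoma markers, SOX2 did not exceed 1.03 TPM and DNMT3L was at 42.3 to 67.3 TPM. Of 3 Sertoli cell markers, GATA1 was at 0 in every library, CLDN11 did not exceed 0.67 TPM, and AMH was at 11.5 and 12.2 TPM in RBMXL3 and at 5.84 to 8.51 TPM in the controls. Of 3 fibroblast markers, DCN did not exceed 0.124 TPM, COL1A1 was at 3.09 to 6.58 TPM over all libraries, and COL3A1 was at 5.94 TPM in both RBMXL3 libraries and at 1.31 to 2.31 TPM in the controls. The blood cell markers PTPRC and HBB did not exceed 0.136 and 0.754 TPM. The part of AMH and COL3A1 or of other cells in the usage results was not tested. The RBMXL3 libraries stood apart in reads on genes that lie opposite abundant genes. Over 32 such genes, the summed reads came to 0.043% and 0.0369% of the reads on the partner genes in RBMXL3, and to between 0.291% and 0.468% in the controls. The labels give no batch or date, so a difference in library preparation and the group cannot be told apart.

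The sequences of some of the exon junctions that mark the transcripts described below are shown first, because each is held by no other tested transcript of its gene and shows where that transcript departs from the rest. Each runs 5′ to 3′ over 24 bases of the GENCODE 29 transcript (GRCh38), with the last 12 bases of the upstream exon in lower case and the first 12 bases of the downstream exon in capitals. The annotated models of these transcripts have the same version in the deposited table and in GENCODE 29. Some transcripts they were compared with, such as NBDY-201, have another version there. That a junction is held by no other tested transcript is therefore a statement about the GENCODE 29 models.
ZCRB1-205: taagagcacagtATATTTTCCAAG
RBM7-205: aatttagatcagTAGTCATGCCCC
RBM7-206: cttttccaccagGAAGTAGTCATG
HNRNPLL-204: agcaatggttgaTCGTCTAAATGT
GRSF1-203: ctcatacagaagGAGTCCAAAACT
GRSF1-207: gcctggcccatgGAGTCCAAAACT
CYCS-202: aactagggacagAATTAAATATGG
CYCS-203: gactaaaaagagAGGGCAAAAGCT
DLD-202: cagatcagccgaGCTTTATTGAAC
DLD-203: aacttttggaagCATTTGTCTTCA
PDS5B-203: ccattacactagGTACGGCGGCGA
NBDY-204: cttctgtatgagTCTTATGATGTA
Of these, ZCRB1-205, RBM7-205, HNRNPLL-204, GRSF1-207, CYCS-202, DLD-202, PDS5B-203 and NBDY-204 took a higher share in RBMXL3, and RBM7-206, GRSF1-203, CYCS-203 and DLD-203 a lower one. The 2 GRSF1 junctions join different upstream exons, ending at 70838869 and 70839177 on chromosome 4 (minus strand), to the same downstream exon at 70836314. The RBM7 junctions enter downstream exons that start at 114402832 and 114402828 on chromosome 11 (plus strand), and the upstream exons end at 114401860 and 114400767. In CYCS, on chromosome 7 (minus strand), the upstream exons end at 25124996 and 25125200. DLD-203 ends with a junction over 12047 bases of chromosome 7, from 107919383 to 107931431. No junction reads were analysed here, so these letters describe the annotated models and not reads.

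Transcript shares differed between RBMXL3 and the pooled controls in 457 of the 7642 member genes (5.98%), at a Benjamini-Hochberg adjusted Simes p under 0.05 from limma on arcsine square root transformed shares. Single transcripts passed the same threshold in 636 of 33226 cases (1.91%), with 305 higher (0.918%) and 331 lower (0.996%). On untransformed shares the split was 331 higher and 131 lower. The direction of the larger group therefore depended on the transform. In 115 genes at least 1 transcript rose and at least 1 fell. A fit of 3 groups called 47 genes between the control groups, GFP against WT (0.615%), and 322 genes for RBMXL3 against the controls. Between GFP and WT it called 19 transcripts higher and 31 lower, and 2 genes were called both there and among the 457.

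Over the 636 called transcripts the median size of the mean difference was 21.1 points, against 2.73 points over all transcripts tested, and 505 of them differed by at least 10 points, 216 higher and 289 lower. Summed over a gene, the share that moved from some transcripts to others (0.5 times the summed absolute differences of the tested transcripts, here called the share distance) had a median of 25.3 points in called genes and 8.94 points in all member genes. Between GFP and WT its median over all member genes was 6.71 points. The groups did not overlap for any of the 636 called transcripts, and for 9167 of the 33226 tested (27.6%). Between the replicates of a group, the median absolute difference of a share was 2.8 points in WT, 3.32 in GFP and 2.16 in RBMXL3.

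Many called transcripts were listed at 0 throughout a group. Of the 305 that rose, 124 were at 0 in all 4 controls, and of the 331 that fell, 220 were at 0 in both RBMXL3 libraries. All 50 transcripts called between GFP and WT were at 0 in both libraries of 1 control. Of the 636 called in RBMXL3, 292 were above 0 in at least 1 library of each group. Such a transcript was held by 203 of the 457 called genes. These counts are not like for like, since a rise had to be at 0 in 4 controls to count as 0. PFDN4-202, for example, counts as above 0 through 0.126% in WT replicate 1 alone. An exact 0 in salmon's output is an estimate, TPM keeps no depth, and replicates at 0 show no spread, so no fold is given for these transcripts. Genes near the rule's TPM limit had wide shares in both comparisons: the 297 member genes whose lowest summed TPM was between 5 and 6 had a median share distance of 16.2 points between RBMXL3 and the controls and 14.8 between GFP and WT, and for the 313 genes just outside, between 4 and 5, these were 17.8 and 16.3.

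**Figure D1:**
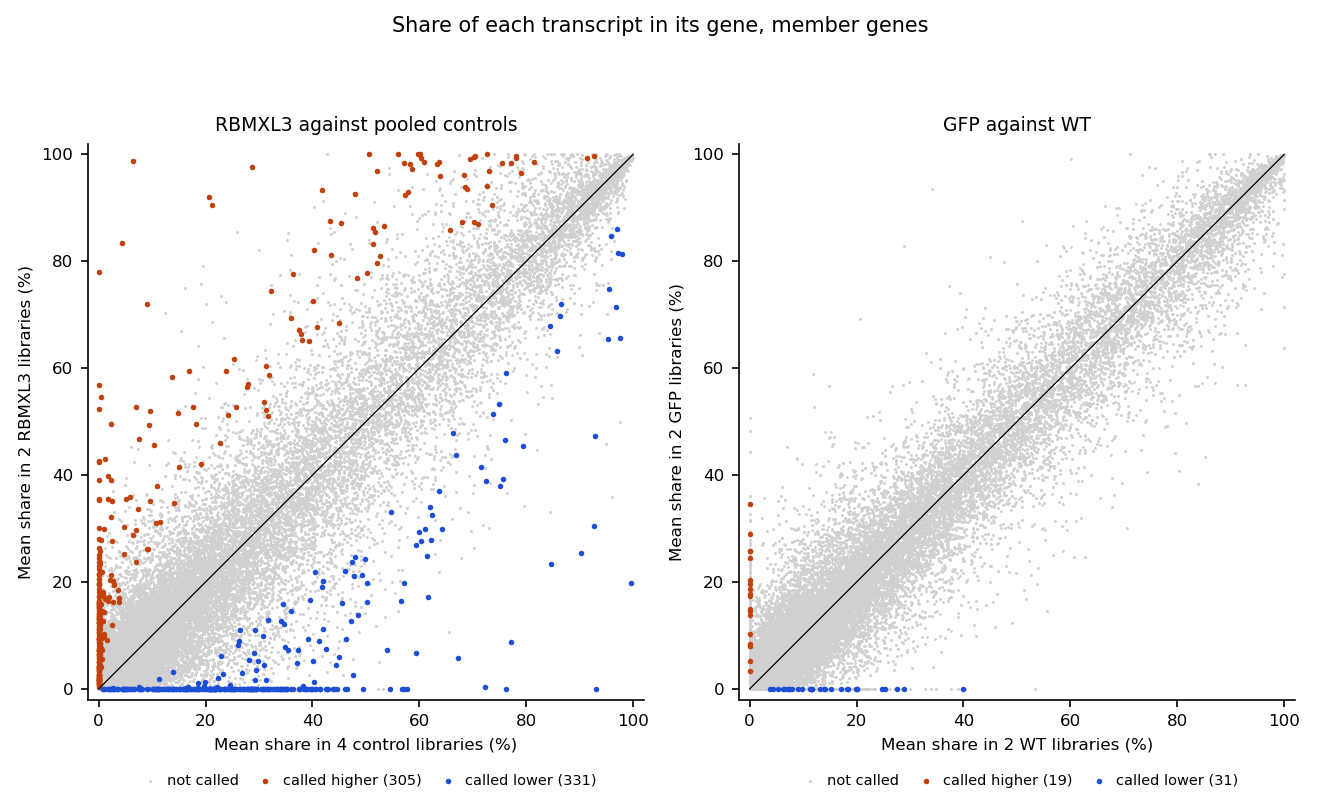
Mean share of each of the 33226 tested transcripts, in percent of its gene's summed TPM, in the pooled controls against RBMXL3 (left) and in WT against GFP (right); coloured points were called by limma. Many of the 305 higher and 331 lower calls on the left lie on an axis where a whole group is listed at 0, and all 50 calls on the right lie on an axis.

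The 20 genes with the widest gap between the groups, where the gap is the smallest difference between any RBMXL3 library and any control library, had share distances between 45.6 and 92.8 points. Between GFP and WT the same genes had share distances between 0.0634 and 19.6 points. In 13 of the 20 the transcript with the highest share was the same in all 4 controls and another in both RBMXL3 libraries. Such a change of the leading transcript occurred in 194 of all member genes (2.54%) and in 47 of the 457 called genes, and between WT and GFP in 93 member genes (1.22%). These 20 genes were picked for their gap, so their values are a description.

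**Figure D2:**
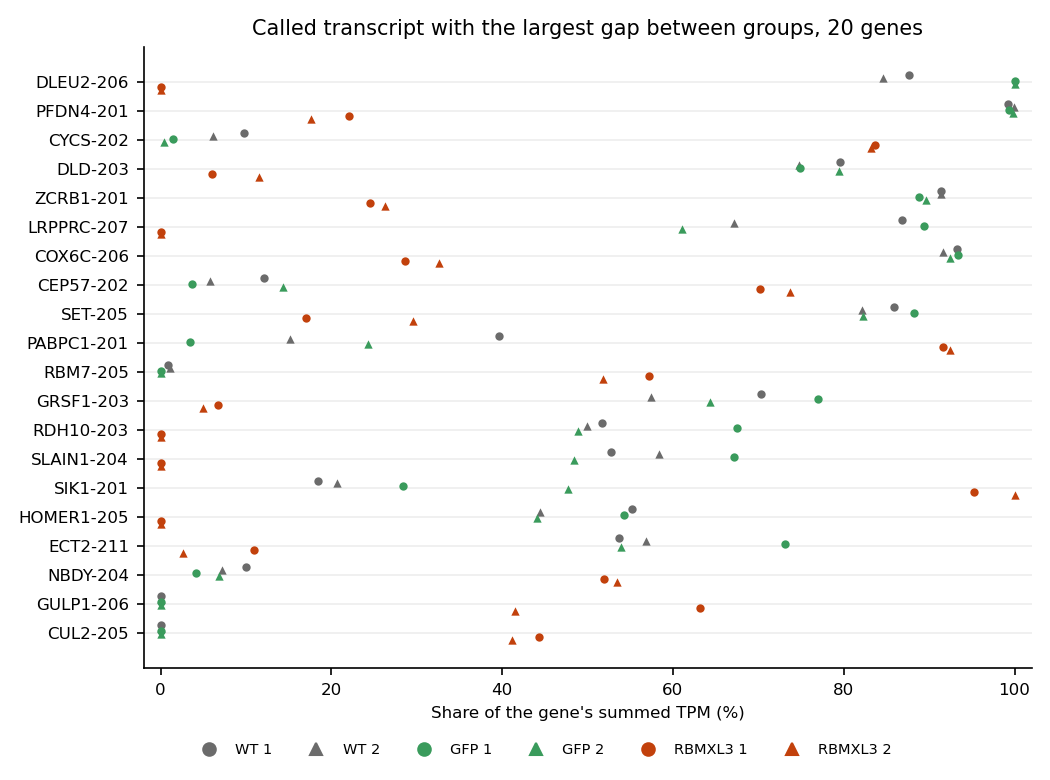
Share of the called transcript with the widest gap in each of 20 genes, in percent of the gene's summed TPM, with 1 point per library (circle, replicate 1; triangle, replicate 2). In each row the 2 RBMXL3 points lie on 1 side of all 4 control points.

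Genes of RNA processing were examined first, since RBMX acts there. RBMX was the only member of its family, as RBMXL1, RBMXL2 and RBMXL3 did not meet the rule. RBMX-201 made up 79.4% and 77.4% in RBMXL3, against 79.8% and 81.3% in WT and 81.2% and 81.7% in GFP. Both RBMXL3 libraries lay below all 4 controls by a small margin, and the gene was not called (limma adjusted Simes p 0.424). Its share distance was 4.51 points, and 0 of its 9 tested transcripts passed.

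ZCRB1 encodes an RNA-binding component of the minor spliceosome, which removes a rare class of introns. ZCRB1-201 made up 24.5% and 26.2% in RBMXL3, against 91.3% in each of the 2 WT libraries and 88.9% and 89.6% in GFP. It fell by 64.9 points on average, from 90.3% ± 1.24 (SD, n = 4) in the controls to 25.4% ± 1.22 (SD, n = 2) in RBMXL3 (limma adjusted p 0.00141), with no overlap between the groups. ZCRB1-205, whose junction is printed above, was 41.5% and 36.5% in RBMXL3, against 0% in each of the 2 WT libraries and 0% in each of the 2 GFP libraries, and ZCRB1-204 was 33.5% and 36.7% in RBMXL3, against 8.44% and 8.54% in WT and 10.9% and 10.2% in GFP. Both rose (limma adjusted p 0.00141 and 0.0125), so that 3 transcripts shared the gene in RBMXL3 where 1 had led in the controls. At the gene level the log2 gene change was 0.13 ± 0.14 (SE; limma adjusted p 0.511). ZCRB1-204 is the 1 transcript named here whose direction turned under log2(TPM + 0.1), where the test asks how a transcript moved against the rest of its gene.

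RBM7 is the RNA-binding subunit of a complex that hands nuclear RNA to the exosome for decay. RBM7-205, annotated as a nonsense-mediated decay target, was 57.2% and 51.9% in RBMXL3, against 0.819% and 1.12% in WT and 0% in each of the 2 GFP libraries. It rose (limma adjusted p 0.00264) and became the leading transcript in both RBMXL3 libraries. RBM7-208, a coding model of 867 nt that led in the controls, was 27.3% and 28.1% in RBMXL3, against 54.7% and 62.4% in WT and 63.9% and 60.4% in GFP, and it fell (limma adjusted p 0.0127). RBM7-206 and RBM7-207 were present in all 4 controls, between 14.6% and 20.2% and between 8.27% and 15.7%, and at 0 in both RBMXL3 libraries. The gene level showed a log2 gene change of 0.03 ± 0.14 (SE; limma adjusted p 0.895).

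HNRNPLL, a regulator of alternative splicing best known from lymphocytes, had the widest gap among the hnRNP genes. HNRNPLL-204 was 43.2% and 50.3% in RBMXL3, against 7.18% and 9.46% in WT and 8.0% and 5.42% in GFP, and rose by 39.3 points (limma adjusted p 0.00608). HNRNPLL-209 was 20.7% and 21.7% in RBMXL3, against 41.4% and 49.1% in WT and 50.6% and 50.2% in GFP, and fell (limma adjusted p 0.0267). HNRNPL-212, from a related gene that binds CA-rich RNA, was 27.3% and 13.9% in RBMXL3, against 0% in each of the 2 WT libraries and 0% in each of the 2 GFP libraries, so that the RBMXL3 replicates differed from each other while both lay above every control (limma adjusted p 0.0104). HNRNPF-206, a non-coding model, was 9.02% and 10.3% in RBMXL3, against 0% in each of the 2 WT libraries and 0% in each of the 2 GFP libraries (limma adjusted p 0.00166), while the main coding transcript HNRNPF-201 held 67.5% and 65.9% in RBMXL3, against 73.3% and 73.7% in WT and 79% and 68.7% in GFP, and it was not called (adjusted p 0.407).

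Of the 25 hnRNP genes among the members, 4 were called (16%, against 5.98% of all member genes): HNRNPLL, HNRNPL, HNRNPF and HNRNPDL. Over 229 tested transcripts 5 were higher and 2 lower, and the median share distance was 10.4 points, against 8.94 for all member genes. Of the 13 genes for SR proteins and TRA2 proteins, which bind exonic enhancers, 2 were called (15.4%), SRSF11 and TRA2A, and their list had 0 transcripts higher and 4 lower. SRSF11-216, a non-coding model of 784 nt, was 0% and 1.11% in RBMXL3, against 17.9% and 22.1% in WT and 19.2% and 19.5% in GFP, and it fell (limma adjusted p 0.0122). TRA2A-204, also non-coding, was 0% in each of the 2 RBMXL3 libraries, against 14.2% and 7.82% in WT and 7.94% and 10.8% in GFP, and it fell (limma adjusted p 0.0197). The leading coding transcripts of both genes, SRSF11-203 and TRA2A-201, were not called, with differences of -3.72 and 4.34 points.

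Among 41 core spliceosome genes 2 were called, RBM39 and LUC7L2, close to the share of all members. RBM39, a splicing coactivator, had 29 tested transcripts. RBM39-206, annotated as a nonsense-mediated decay target, was 5.55% and 4.92% in RBMXL3, against 0% in each of the 2 WT libraries and 0% in each of the 2 GFP libraries, and RBM39-239, a non-coding model, was 0% in each of the 2 RBMXL3 libraries, against 22.1% and 23.3% in WT and 27.8% and 13.4% in GFP. The former rose and the latter fell (limma adjusted p 0.00207 and 0.0168). Of 19 factors of nonsense-mediated decay and the exon junction complex, 1 was called (5.26%): SAP18, where the non-coding SAP18-204 was 1.1% and 3.07% in RBMXL3, against 23.1% and 15.5% in WT and 27.6% and 23.2% in GFP, and it fell (limma adjusted p 0.0391).

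The factors of cleavage and polyadenylation had 4 called genes of 20 (20%, against 5.98% of all member genes): PABPC1, PABPN1, WDR33 and CPSF2. Their median share distance was 11.3 points, against 4.8 points between GFP and WT for the same genes. PABPC1 encodes the cytoplasmic poly(A)-binding protein, and PABPC1-201 was 91.6% and 92.5% in RBMXL3, against 39.6% and 15.2% in WT and 3.47% and 24.3% in GFP. The 4 controls differed widely among themselves, and both RBMXL3 libraries lay above all of them (limma adjusted p 0.0443). PABPC1 has near-identical copies elsewhere in the genome, so its values are uncertain. PABPN1-201, of the nuclear poly(A)-binding protein, was 86.6% and 87.7% in RBMXL3, against 43.3% and 45.8% in WT and 39.3% and 53.2% in GFP, and it rose (limma adjusted p 0.00881), and in the gene table PABPN1 was higher on the log2 scale by 0.78 ± 0.20 (SE; limma adjusted p 0.0207). Its summed TPM overlapped between the groups, at 151 and 160 in RBMXL3 and 137 to 168 in the controls. WDR33 encodes the subunit that reads the polyadenylation signal. WDR33-201 was 71.1% and 66% in RBMXL3, against 47.2% and 44.2% in WT and 40.3% and 48.2% in GFP, WDR33-205 was 23.9% and 24.6% in RBMXL3, against 49.7% and 47.7% in WT and 56.1% and 46.1% in GFP, and the former rose and the latter fell (limma adjusted p 0.0396 and 0.0321). WDR33-205 is 822 nt long, and without transcripts under 1000 nt the difference for WDR33-201 was -0.0099 on the arcsine scale and not called (adjusted p 0.916).

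**Figure D3:**
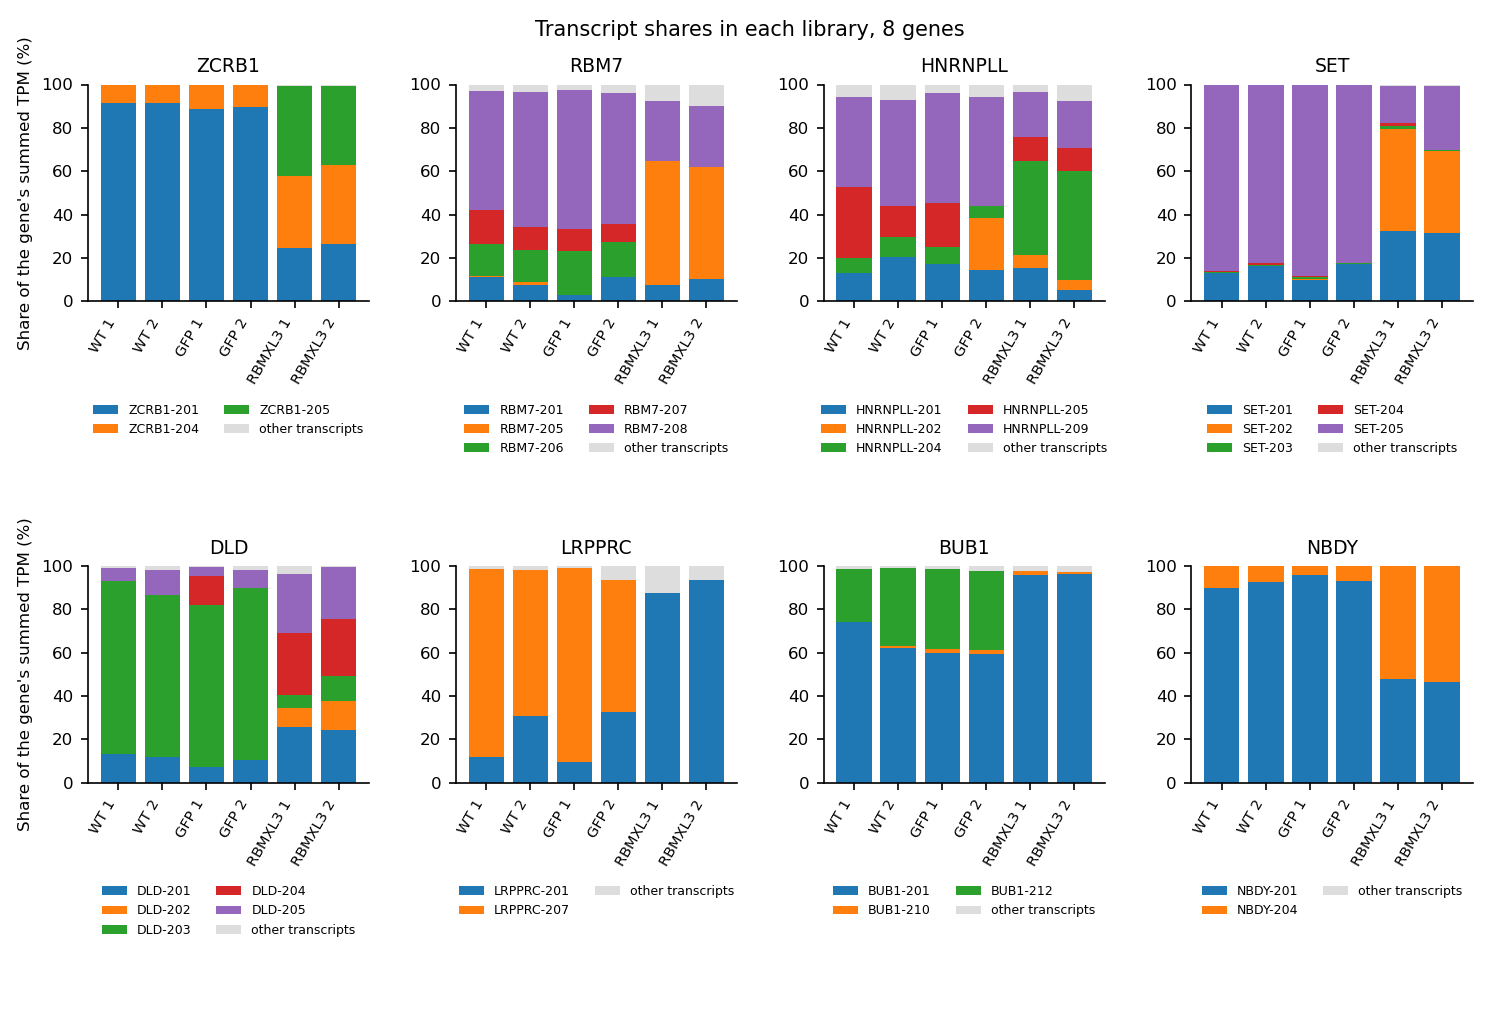
Transcript shares in each of the 6 libraries for 8 genes, stacked to 100% of the gene's summed TPM. Grey stands for all other matched transcripts of the gene. In the panel of ZCRB1, ZCRB1-201 fills 88.9% to 91.3% of the controls and 24.5% and 26.2% of RBMXL3.

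Several genes with wide gaps act in mitochondria. DLD encodes the dihydrolipoyl dehydrogenase subunit shared by several dehydrogenase complexes. DLD-203 was 6.02% and 11.5% in RBMXL3, against 79.6% and 74.7% in WT and 74.9% and 79.4% in GFP. It is annotated as a nonsense-mediated decay target and fell by 68.4 points (limma adjusted p 0.00173). DLD-202, another such target, was 8.9% and 13.5% in RBMXL3, against 0% in each of the 2 WT libraries and 0% in each of the 2 GFP libraries, and it rose (limma adjusted p 0.00379). The coding transcripts DLD-201, DLD-204 and DLD-205 were each higher in both RBMXL3 libraries than in every control, by 14.2, 24.1 and 18.1 points on average, and none passed the test. The gene level changed little, with a log2 gene change of -0.04 ± 0.09 (SE; limma adjusted p 0.775). DLD overlaps a more abundant gene on the opposite strand, and the part of opposite-strand reads in its shares was not tested.

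COX6C encodes a subunit of cytochrome c oxidase and showed an exchange between 2 models that are both annotated as nonsense-mediated decay targets. COX6C-206 was 28.6% and 32.5% in RBMXL3, against 93.3% and 91.6% in WT and 93.4% and 92.4% in GFP, and COX6C-207 was 59.3% and 54.5% in RBMXL3, against 0% in each of the 2 WT libraries and 0% in each of the 2 GFP libraries. The annotated lengths of these transcripts are 566 and 562 nt, and each carries a reading frame of 225 nt, the same length as in the coding models of the gene. The former fell and the latter rose (limma adjusted p 0.00141 for both).

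LRPPRC and GRSF1 encode RNA-binding proteins that act on mitochondrial transcripts. LRPPRC-207, a model with a retained intron, was 0% in each of the 2 RBMXL3 libraries, against 86.9% and 67.2% in WT and 89.4% and 61.1% in GFP, while the coding LRPPRC-201 was 87.5% and 93.6% in RBMXL3, against 11.9% and 30.8% in WT and 9.71% and 32.4% in GFP. WT replicate 2 and GFP replicate 2 stood apart from the other controls for both transcripts, and the RBMXL3 libraries lay outside all 4 controls (limma adjusted p 0.0105 and 0.0232). LRPPRC was lower at the gene level, with a log2 gene change of -0.35 ± 0.11 (SE, limma adjusted p 0.0446). The TPM of LRPPRC-201 was 9.83 and 11.1 in RBMXL3 and 5.94 to 7.94 in the controls. The summed TPM of the gene was 11.2 and 11.8 in RBMXL3 and 22 to 78.9 in the controls. In the gene table the mean value of LRPPRC was 18219.5 in the controls and 14233.9 in RBMXL3. For ECT2, with a summed TPM of 56.6 to 80.8 in the controls, these values were 3083.85 and 3062.29. The 2 tested LRPPRC transcripts therefore need not hold most of the gene's signal. Unmatched transcripts are not in the sum, and their part was not tested. GRSF1-203 was 6.74% and 5.0% in RBMXL3, against 70.3% and 57.4% in WT and 76.9% and 64.3% in GFP. GRSF1-207 was 41.3% and 49.8% in RBMXL3, against 5.4% and 18.1% in WT and 7.76% and 10.1% in GFP. The former fell and the latter rose (limma adjusted p 0.00634 and 0.0439), with no overlap between the groups. The model of GRSF1-207 has another first exon, as printed above, but it is annotated with an incomplete end. Where GRSF1-207 starts is therefore uncertain.

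CYCS encodes cytochrome c, and its processed pseudogenes make its values uncertain. Beside the rise of CYCS-202, CYCS-203 was 0% and 0.788% in RBMXL3, against 81% and 75.8% in WT and 51.3% and 80.9% in GFP, and it fell (limma adjusted p 0.0113), with GFP replicate 1 the lowest control. The annotated reading frame has 315 nt in both transcripts. They differ in the first junction, in the number of exons (3 in CYCS-202 and 4 in CYCS-203) and by 137 nt at the 3′ end. Of the 67 nuclear-encoded respiratory chain genes among the members, 4 were called (5.97%, beside 5.98% of all member genes): COX6C, NDUFA5, NDUFV1 and NDUFA4. The list's median share distance was 2.7 points, below the 8.94 of all members. NDUFA5-206, of a complex I subunit, was 0% in each of the 2 RBMXL3 libraries, against 29.5% and 37.6% in WT and 46.2% and 25.8% in GFP, and it fell (limma adjusted p 0.0123), and in the gene table NDUFA5 was higher on the log2 scale by 0.67 ± 0.14 (SE; limma adjusted p 0.00712). Its summed TPM overlapped between the groups, at 60.03 and 70.1 in RBMXL3 and 59.7 to 67.4 in the controls. NDUFV1-203, a model with retained introns of another complex I subunit, was 1.71% and 2.05% in RBMXL3, against 0% in each of the 2 WT libraries and 0% and 0.0804% in GFP. It rose by only 1.86 points (limma adjusted p 0.013), and NDUFV1-201, which held 74.6% and 75% in RBMXL3, against 77.6% and 72.8% in WT and 83.7% and 84.1% in GFP, was not called.

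Genes of cell division formed a list of 40 members, of which 6 were called (15%, against 5.98% of all member genes): RAD21, BUB1, PDS5B, MAD2L1, KIF23 and PDS5A. Their list had a median share distance of 5.8 points, under the 7.57 points between GFP and WT for the same genes. BUB1 encodes a kinase of the spindle checkpoint. BUB1-201 was 95.7% and 96.2% in RBMXL3, against 74% and 62.2% in WT and 59.8% and 59.5% in GFP, and BUB1-212 was 0% in each of the 2 RBMXL3 libraries, against 24.7% and 35.9% in WT and 36.9% and 36.5% in GFP. The former rose and the latter fell (limma adjusted p 0.0164 and 0.00537), and the gene was lower, with a log2 gene change of -0.37 ± 0.10 (SE, limma adjusted p 0.0277). The TPM of BUB1-201 overlapped between the groups, at 60.1 and 63.8 in RBMXL3 and 41.2 to 61.1 in the controls. PDS5B and RAD21 belong to cohesin and its regulators. PDS5B-203, annotated as a nonsense-mediated decay target although its model spans 5246 nt and 34 exons, was 22.9% and 24.4% in RBMXL3, against 0% in each of the 2 WT libraries and 1.13% and 0% in GFP, and it rose (limma adjusted p 0.00598). RAD21-201 was 98.9% and 98.3% in RBMXL3, against 64.6% and 53.6% in WT and 52.1% and 73.4% in GFP, and it rose (limma adjusted p 0.0211), while RAD21-203 was 0% in each of the 2 RBMXL3 libraries, against 19.8% and 36.4% in WT and 47.7% and 21.9% in GFP, and it fell (limma adjusted p 0.0457).

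CEP57 and ECT2, which act at the centrosome and in cytokinesis, were outside that list's named genes and came in through their gap. CEP57-202 was 70.2% and 73.7% in RBMXL3, against 12% and 5.84% in WT and 3.71% and 14.3% in GFP, and it rose by 63 points (limma adjusted p 0.0070). CEP57-215, a model of 503 nt with a retained intron, was 0% in each of the 2 RBMXL3 libraries, against 30.2% and 41.9% in WT and 42.9% and 24.8% in GFP, and it fell (limma adjusted p 0.0119). ECT2-211 was 11% and 2.63% in RBMXL3, against 53.7% and 56.9% in WT and 73.1% and 54% in GFP, and it fell (limma adjusted p 0.0214). GFP replicate 1 was the highest library for ECT2-211, and both RBMXL3 libraries lay far below the lowest control.

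Of 29 genes for DNA repair and genome stability, 2 were called (6.9%, beside 5.98% of all member genes), RIF1 and BRCA1, and the list had 0 transcripts higher and 3 lower. The list's median share distance was 15.5 points, and it was 10.8 points between GFP and WT, beside 8.94 and 6.71 for all member genes. RIF1-203 was 24.3% and 15.2% in RBMXL3, against 62.7% and 50.4% in WT and 60.9% and 54.1% in GFP, and it fell (limma adjusted p 0.0269). RIF1-206, with the same annotated coding length of 7338 nt, was 42.9% and 31.2% in RBMXL3, against 0% and 11.1% in WT and 0% in each of the 2 GFP libraries, and it was not called (adjusted p 0.0866). BRCA1-226 was 0% in each of the 2 RBMXL3 libraries, against 23.2% and 20.7% in WT and 26.1% and 29.3% in GFP, and it fell (limma adjusted p 0.00485). Its first junction skips 50749 bases of chromosome 17, and the model carries a coding length of 1062 nt.

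Of 20 apoptosis regulators 1 was called, CYCS (5%), and of 15 prefoldin and chaperonin subunits 1, PFDN4 (6.67%), near the 5.98% of all member genes, with median share distances of 9.71 and 4.03 points. None of the 13 seminoma and pluripotency markers, 29 genes for chromatin and DNA methylation and 78 cytosolic ribosomal protein genes was called by limma, and none of their transcripts passed the threshold. Their median share distances were 7.1, 12 and 1.23 points. Ribosomal protein genes thus had the smallest distances of all the lists examined, in RBMXL3 against the controls as between GFP and WT, at 1.45 points.

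**Figure D4:**
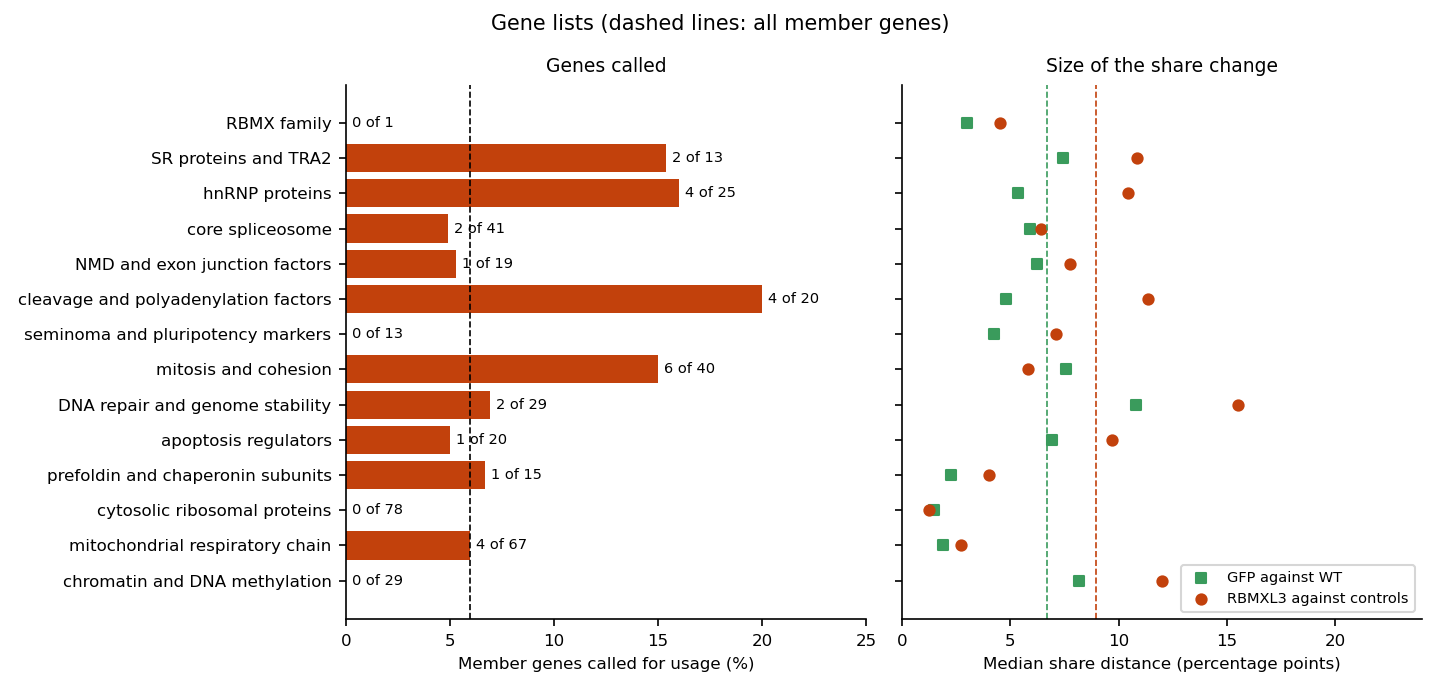
Share of the member genes called for usage in each of 14 gene lists, in percent (left; the numbers give called genes of members), and the median share distance of each list in percentage points (right; circles, RBMXL3 against controls; squares, GFP against WT). Dashed lines mark all member genes, at 5.98% called and at 8.94 and 6.71 points; the cytosolic ribosomal proteins have 0 of 78 called and the lowest distances.

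Several other genes with wide gaps act in signalling, trafficking and protein turnover. SET, a histone chaperone and inhibitor of a protein phosphatase, changed its leading transcript. SET-205 was 17% and 29.6% in RBMXL3, against 85.9% and 82.1% in WT and 88.3% and 82.3% in GFP, and SET-202 was 47.1% and 37.7% in RBMXL3, against 0% in each of the 2 WT libraries and 0.29% and 0% in GFP. The former fell and the latter rose (limma adjusted p 0.00473 and 0.00209), and the gene was lower, with a log2 gene change of -0.41 ± 0.11 (SE; limma adjusted p 0.024). Pseudogene copies of SET make its values uncertain. CUL2, a scaffold of ubiquitin ligases, had CUL2-205, annotated as a nonsense-mediated decay target, at 44.3% and 41.1% in RBMXL3, against 0% in each of the 2 WT libraries and 0% in each of the 2 GFP libraries (limma adjusted p 0.00141). CUL2-206 was 0% and 21.4% in RBMXL3, against 61.2% and 71.9% in WT and 63.5% and 65.8% in GFP, and did not pass, with the RBMXL3 replicates far apart (adjusted p 0.0679). NBDY encodes a microprotein of the mRNA decapping machinery. NBDY-204 was 51.9% and 53.4% in RBMXL3, against 10.02% and 7.18% in WT and 4.18% and 6.85% in GFP, and NBDY-201 took the rest of the gene in every library. The 2 transcripts came close to equal shares in RBMXL3 (limma adjusted p 0.00468 and 0.00339), and NBDY was lower at the gene level, with a log2 gene change of -0.42 ± 0.10 (SE; limma adjusted p 0.0163).

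HOMER1 encodes a scaffold of the postsynaptic density that is also made in other cells. HOMER1-202 was 100% in each of the 2 RBMXL3 libraries, against 44.8% and 55.6% in WT and 45.7% and 55.9% in GFP, and HOMER1-205 held the remainder in the controls and 0 in RBMXL3. HOMER1-202 therefore rose in share by 49.5 points (limma adjusted p 0.00207). Its TPM overlapped between the groups, at 6.5 and 6.52 in RBMXL3 and 5.12 to 6.67 in the controls. The summed TPM of the gene was 9.16 to 14.9 in the controls. SIK1-201, of a salt-inducible kinase, was 95.3% and 100% in RBMXL3, against 18.4% and 20.6% in WT and 28.4% and 47.7% in GFP, and it rose (limma adjusted p 0.0181), while SIK1-205, a model of 529 nt, was 0% in each of the 2 RBMXL3 libraries, against 53.3% and 66.4% in WT and 69.7% and 41.4% in GFP, and it fell (limma adjusted p 0.0103). SLAIN1-204, of a microtubule plus-end protein, was 0% in each of the 2 RBMXL3 libraries, against 52.7% and 58.4% in WT and 67.1% and 48.5% in GFP, and it fell (limma adjusted p 0.00327). RDH10-203, of a retinol dehydrogenase, was 0% in each of the 2 RBMXL3 libraries, against 51.6% and 49.9% in WT and 67.5% and 48.8% in GFP, and it fell (limma adjusted p 0.00443). GULP1 encodes an adaptor for the engulfment of dying cells. GULP1-206 was 63.1% and 41.5% in RBMXL3, against 0% in each of the 2 WT libraries and 0% in each of the 2 GFP libraries. It rose (limma adjusted p 0.00468), to 6.71 and 7.04 TPM in RBMXL3. The summed TPM of GULP1 was 10.6 and 16.9 in RBMXL3 and 33.4 to 52.9 in the controls. At the gene level the log2 gene change was -0.29 ± 0.18 (SE, limma adjusted p 0.275).

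DLEU2 is a long non-coding RNA gene with 2 tested transcripts. Of the summed TPM of its matched transcripts, 1 held nearly all in RBMXL3 and the other held most in the controls. DLEU2-207 was 100% and 97.7% in RBMXL3, against 10.1% and 15.4% in WT and 0% in each of the 2 GFP libraries, and DLEU2-206 was 0% in each of the 2 RBMXL3 libraries, against 87.6% and 84.6% in WT and 100% in each of the 2 GFP libraries. The former rose and the latter fell (limma adjusted p 0.0125 and 0.0104). The share distance was 92.8 points, against 13.3 between GFP and WT, and the gene overlaps a more abundant gene on the opposite strand. In the gene table DLEU2 was higher on the log2 scale by 0.81 ± 0.14 (SE, limma adjusted p 0.00284). Its summed TPM, however, was lower in RBMXL3, at 11.3 in both libraries, than in the controls, at 14 to 18.5. Unmatched transcripts are not in that sum, so the 2 tested models need not hold most of the gene's signal. The part of unmatched transcripts was not tested. PFDN4, a prefoldin subunit, exchanged PFDN4-201 for PFDN4-202, a nonsense-mediated decay target that was 75.1% and 80.8% in RBMXL3, against 0.126% and 0% in WT and 0% in each of the 2 GFP libraries (limma adjusted p 0.00141). All 4 controls were near 0 for PFDN4-202, and the gene level gave a log2 gene change of -0.25 ± 0.16 (SE; limma adjusted p 0.30).

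Transcripts annotated as nonsense-mediated decay targets were called higher in 36 and lower in 28 of 2869 cases, or 1.25% and 0.976%, beside 0.918% and 0.996% of all tested transcripts. For models with a retained intron these were 36 and 49 of 4501, or 0.8% and 1.09%. For non-coding models of the GENCODE class processed transcript they were 29 and 52 of 3822, or 0.759% and 1.36%. For coding transcripts they were 203 and 198 of 21683, or 0.936% and 0.913%. NPIPB12-202, a decay target, was 0% in each of the 2 RBMXL3 libraries, against 36.4% and 41.8% in WT and 36.1% and 45.4% in GFP, and it fell (limma adjusted p 0.00248), though NPIPB12 belongs to a family of near-identical copies and is uncertain. Among models with retained introns, CHD1-211, of a chromatin remodeller, was 52.1% and 64.7% in RBMXL3, against 13.8% and 17.9% in WT and 9.84% and 13.2% in GFP, PIK3R4-205, of a subunit of a phosphatidylinositol kinase complex, was 36.3% and 34.5% in RBMXL3, against 0% in each of the 2 WT libraries and 0% in each of the 2 GFP libraries, and WDR70-205 was 19.8% and 26.3% in RBMXL3, against 0% in each of the 2 WT libraries and 0% in each of the 2 GFP libraries. All 3 rose (limma adjusted p 0.0124, 0.00141 and 0.00207). In the other direction, RCC1L-206, of a protein of mitochondrial ribosome assembly, was 0% in each of the 2 RBMXL3 libraries, against 39.8% and 35.3% in WT and 44% and 36.4% in GFP, and COL4A1-213, of a basement membrane collagen chain, was 6.97% and 7.81% in RBMXL3, against 39.9% and 42.4% in WT and 47.9% and 39.9% in GFP. Both fell (limma adjusted p 0.00207 and 0.00598), and their coding transcripts RCC1L-201 and COL4A1-201 rose by 38.5 and 35 points. CHD1-209, a decay target, fell from between 42.3% and 52.4% in the controls to 10.8% and 14.5%.

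How the exchanged transcripts differ was described from the annotated model with the largest rise and that with the largest fall in each gene, for genes in which both models are unchanged between the deposited table and GENCODE 29. Of 186 called genes, the 2 models differed by more than 50 nt at both ends in 133 (71.5%), at the start alone in 18 (9.68%), at the end alone in 29 (15.6%) and in internal exons only in 6 (3.23%). Of the 2426 member genes not called these shares were 58.9%, 13.4%, 21.0% and 6.64%. Exchanges between models with the same ends were thus a small minority in both sets. Over all 457 called genes the riser was coding and the faller was not in 131 (28.7%), and the reverse held in 67 (14.7%). Over all member genes these were 21.7% and 16.8%.

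Among the called genes, 2 changed their leading transcript by internal exons only, as far as the GENCODE 29 models show. In both, the transcript that led in RBMXL3 has another version in GENCODE 29 than in the deposited table, so its structure is uncertain and neither gene is among the 186. HPS5, of a complex in the biogenesis of lysosome-related organelles, had HPS5-205 at 26.7% and 23% in RBMXL3, against 61.1% and 68.2% in WT and 54% and 62.2% in GFP, and it fell (limma adjusted p 0.0195). The transcript that led in both RBMXL3 libraries, HPS5-201, was 28.2% and 43.6% in RBMXL3, against 14.8% and 16.3% in WT and 8.64% and 18.6% in GFP, and it was not called (adjusted p 0.153). PDE9A, a cyclic GMP phosphodiesterase, had PDE9A-204 at 27.8% and 32% in RBMXL3, against 73.2% and 57.3% in WT and 62.8% and 63.6% in GFP, and it fell (limma adjusted p 0.0364). The transcript that led in both RBMXL3 libraries, PDE9A-201, was 60.5% and 45.1% in RBMXL3, against 20.1% and 29.7% in WT and 28.2% and 13.6% in GFP, and it was not called (adjusted p 0.127).

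Lengths were compared among unchanged models only, which hold 67.9% of the 305 transcripts called higher and 87.0% of the 331 called lower. Lower calls are therefore more frequent in this set than among all calls. In it, the 207 called higher had a median length of 1132 nt, the 288 called lower 886.5 nt, and those not called 985 nt. The calls by length class followed no single order. Transcripts under 600 nt were called higher in 0.902% and lower in 1.2% of 5320 cases, those of at least 600 and under 1000 nt in 0.647% and 1.35% of 7422, and those of at least 1000 and under 2000 nt in 0.812% and 1.1% of 5542. From 2000 to under 4000 nt the calls were higher in 1.02% and lower in 0.862% of 4988, and from 4000 nt in 0.797% and 1.06% of 1881. The riser was the longer of the 2 models in 121 of 186 called genes (65.1%) and in 59.8% of those not called. Models with an incomplete end made up 15.9% of those called higher, 23.6% of those called lower and 21.2% of those not called. Over matched models of any version, the exons of called genes had a median GC content of 44.9%, against 50.01% in member genes not called. The lower read depth of the RBMXL3 libraries and their lower share of opposite-strand reads moved with the same groups, and the part of either in these differences of length was not tested.

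Summed over genes, 5 of 7 per-library summaries did not overlap between the groups. Over the 785 members whose tested models are all unchanged, the share-weighted mean transcript length was 2490 and 2481 nt in RBMXL3, against 2415 and 2436 nt in WT and 2353 and 2438 nt in GFP. Both RBMXL3 libraries were above all 4 controls, by 75.1 nt on average. The mean share of coding transcripts over all 7642 members was 82.9% in both RBMXL3 libraries, against 82.4% and 81.6% in WT and 81.3% and 82.5% in GFP. The mean share of models with a retained intron was 5.08% and 5.06% in RBMXL3, against 5.25% and 5.82% in WT and 5.56% and 5.3% in GFP, so that the RBMXL3 libraries were lowest. Shares of incomplete models and of models under 1000 nt were also lower in RBMXL3, by 0.709 and 1.41 points. An exact two-sided permutation test of 2 libraries against 4 cannot go below 0.133, which it gave for these 5 summaries (0.187 after Benjamini-Hochberg adjustment over 7). The mean share of decay targets and the effective number of transcripts per gene overlapped between the groups (exact permutation p 1.0 and 0.8).

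**Figure D5:**
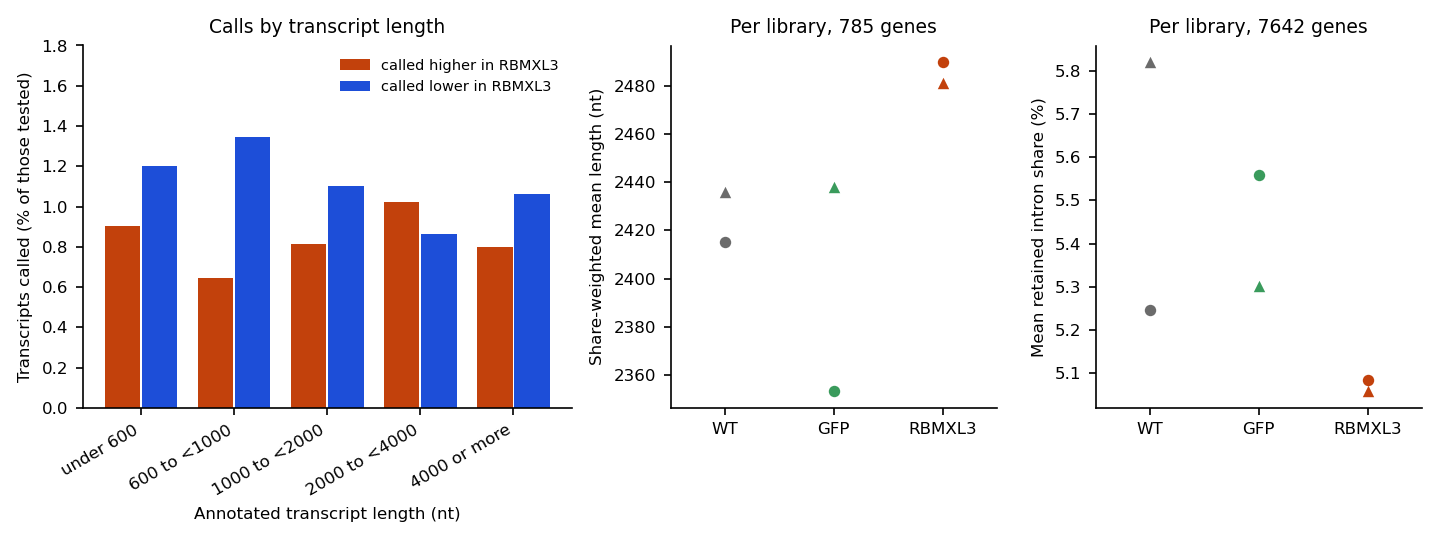
Transcripts called higher or lower in RBMXL3 by annotated length, in percent of those tested (left), and for each library the share-weighted mean transcript length in nt (middle) and the mean share of models with a retained intron in percent (right; circle, replicate 1; triangle, replicate 2; axes do not start at 0). On the left only unchanged models count, which hold 67.9% of all higher calls and 87.0% of all lower calls. In this set lower calls exceed higher calls in every length class except that from 2000 to under 4000 nt. The RBMXL3 libraries lie above all controls in length (2490 and 2481 nt) and below all controls in retained introns (5.08% and 5.06%).

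Usage and gene level were compared last. In limma on log2 of the rescaled gene values, 1506 of the 7461 member genes with a gene-level test were called (20.2%). Of the 445 usage-called genes with such a test, 98 were called (22%), 52 higher and 46 lower, and of the 7016 other members 1408 were called (20.1%). The median absolute log2 change was 0.21 and 0.20 in these sets, and 210 of the 445 had an absolute log2 change under 0.2. In all, 2703 of 14292 genes were called (18.9%), 1361 higher and 1342 lower. On summed TPM per gene 962 were higher and 365 lower. Of the 20 genes with the widest gaps 7 were called at the gene level, 2 higher and 5 lower. Genes that overlap a gene on the opposite strand made up 37.2% of the usage-called genes and 43.1% of the other members, and 26 called genes (5.69%) had an opposite gene that was more abundant, against 9.14%.

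Calls on single transcripts rested on both RBMXL3 libraries. With RBMXL3 replicate 1 left out, 175 genes were called, and with RBMXL3 replicate 2 left out 176, where the lone library is assumed to vary like the controls. Of the 75 called transcripts in the genes named here, 25 passed with each of the 6 libraries left out in turn, among them ZCRB1-201, ZCRB1-205, RBM7-205, DLD-202, DLD-203, COX6C-206, COX6C-207, SET-202, SET-205, PFDN4-201, PFDN4-202, HOMER1-202, NBDY-201 and CUL2-205.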

How the data were processed

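Polyadenylated RNA of TCam-2 cells was sequenced from 3 groups of 2 libraries, made with a stranded mRNA kit per the labels' protocols. The submitters' processing notes name Trim Galore 0.6.10, STAR 2.7.11a, DESeq2, Salmon 1.10.2 and the build GRCh38; the annotation release and the counting by strand are not given in the sources used here. The deposited transcript table holds TPM for 251955 transcripts, which keeps no depth. The deposited gene table holds a normalised signal, read counts that the authors divided by 1 size factor per library: 100% of its 145320 nonzero values came out as whole reads (tolerance 0.01 reads). It had been planned as CPM and was divided by 23.9 to that scale. The number of columns of no sample was 0.

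Transcripts were matched to GENCODE 29 (80.0% of transcripts and 94.7% to 95.1% of TPM). Lengths, structures and sequences were mostly used for models of the same version. Matched models of any version were used for GC content, for overlap with opposite-strand genes and for leaving out short or incomplete models. They were also used in the naming of leading transcripts that differ by internal exons. Classes (coding, decay target, retained intron) are those of GENCODE. Shares were tested as arcsine square roots with limma 3.58.1 (R 4.3.3), with an abundance trend, RBMXL3 against 4 pooled controls, two-sided, with Benjamini-Hochberg adjustment over all transcripts; a gene was called on its adjusted Simes p under 0.05. GFP against WT came from a fit of 3 groups. Gene level was limma on log2(value + 1) for genes of at least 1 in 2 libraries, and edgeR 4.0.16 on the recovered reads was an alternative.

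On simulated data over 7642 genes the test recovered 24% of genes with a planned move of 20 points and 83% of those with 40 points. It gave 8 false genes. On the same sets limma's diffSplice recovered 37% and 79%, with 116 false genes. Many transcripts called in the real data were listed without any TPM in a whole group. Whether the simulation reproduces such transcripts and the spread of these libraries was not tested. The counts of false genes are therefore not an error rate for the real calls. Named genes were the 20 with the widest gap of a called transcript, up to 3 called genes per list, the RBMX family, the widest decay and retained intron changes and changes of the leading transcript by internal exons. Members and lists were chosen with earlier results of these data known. Other transforms, filters, control sets and left-out libraries were tried.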

Additional observations from a re-analysis of the deposited data

Results flagged for a closer look

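In some transcripts 1 control library stood apart from the other 3 by more than chance gives in about 1 of 20 groups. All named genes and the per-library summaries were screened, so some such cases would arise by chance. RDH10-203 was at 67.5% in GFP replicate 1, while the other controls lay between 48.8% and 51.6%, and ECT2-211 was at 73.1% in that library, with the others at 53.7% to 56.9%. BUB1-212 was at 24.7% in WT replicate 1 against 35.9% to 36.9%. PDS5B-203 was at 1.13% in GFP replicate 1 and at 0 in the other controls, and NDUFV1-203 was at 0.0804% in GFP replicate 2 and at 0 in the others. For these 2 transcripts any value above 0 would have been flagged, since the other controls do not vary. In all 5 cases the RBMXL3 libraries lay outside all 4 controls.

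Transcripts that match no gene of GENCODE 29 entered no comparison and no gene's summed TPM. At least 1 TPM in 2 libraries was reached by 3754 of them. Of 50288 such transcripts, 11 had at least 5 TPM in both RBMXL3 libraries and at most 0.5 TPM in all 4 controls, and 12 had the reverse.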

How the results depend on the processing

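The count of genes called for usage, 457, was between 322 and 560 without a transform or with a logit, with robust moderation, no trend, other TPM limits, all transcripts above 0, a fit of 3 groups, differences of at least 10 points or incomplete models left out. It was 1242 with diffSplice on log2(TPM + 1), which shared 391 of the called genes, 1025 on log2(TPM + 0.1), 247 with GFP alone and 250 with WT alone as control, and 214 without transcripts under 1000 nt, where 5457 genes were tested. Leaving out each library gave 175 to 427 genes; the lowest were without RBMXL3 replicate 1 (175) or 2 (176). Over all tested transcripts, deviations of same-numbered libraries correlated at -0.07, -0.01 and -0.0047. Such a correlation does not show whether replicate numbers pair the libraries in single genes. The replicate block gave 303 genes. Incomplete or short models left out and edgeR were chosen after seeing the data.

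GFP against WT, 47 genes, gave 0 genes without a transform, with robust moderation, with a summed TPM of at least 20, with the replicate block and with each library left out (limma; 829 to 3160 transcripts at an unadjusted p under 0.05 over its alternatives). It gave 73 with a logit, 141 with diffSplice, 27 without incomplete models and 8 without those under 1000 nt. Gene level, 2703 genes, gave 1717 with no filter, 1327 on summed TPM, 1900 with the replicate block, 2546 with edgeR, and 249 to 3690 with a library left out (271 and 249 without RBMXL3 replicate 1 and 2). The 7 per-library summaries moved by less than 1 SD of the controls under other TPM limits and with each library left out. With a library left out, the difference in mean length was 56.0 to 84.2 nt, and those of the decay share and the effective number changed sign.

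Of 75 called transcripts named, 24 passed under every alternative that gave a value, 48 did not without RBMXL3 replicate 1 and 50 without replicate 2. WDR33-201 reversed without incomplete or short models (-0.0099, adjusted p 0.921 and 0.916), and ZCRB1-204 under diffSplice on log2(TPM + 0.1) (-1.23, adjusted p 0.0196). TPM keeps no depth, so no share has a counting interval.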
